A study of Arabidopsis thaliana with 18 samples.

Results

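The genes described here are those that the array annotation ties to the response of Arabidopsis to chitin but that do not carry the name of a large family of stress regulators. Chitin response is a term of the gene ontology, a shared vocabulary of gene functions. A probe set, the group of short probes that reads a gene on the array, was taken as a member when its annotation held "response to chitin" and its gene symbol and title did not name a WRKY factor, a ZAT, AZF or STZ zinc finger gene or any other zinc finger, an ethylene response factor (ERF), a MYB factor or a MAP kinase (MPK). This gave 87 of the 22810 probe sets, at 87 loci, out of 120 with the chitin term; the other 33 were left out by name.

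Chitin is the main polymer of fungal cell walls. Plants sense its fragments through receptor kinases with LysM domains at the cell surface, of which CERK1 is the signalling receptor in Arabidopsis, and pass the signal on through co-receptor kinases, MAP kinases and calcium. Within minutes the cell switches on genes for transcription factors, and for ubiquitin ligases that mark proteins for breakdown and so tune the response. Many of these genes also answer to wounding, jasmonate, touch and cold, so they are read as a shared early stress programme of leaves.

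The study hybridised leaf RNA from Arabidopsis thaliana to 18 Affymetrix ATH1 arrays, 3 for each of 6 groups, to ask how over-expression of StZFP2, a potato gene for a zinc finger protein, alters the wound response. The groups were wild-type Col-0 and a genotype labelled OEEV47 1-2, called OE here, each as an unwounded control, 1 h after wounding and 6 h after wounding, with arrays lettered A, B and C. The labels of the samples give 1 pooled name for the lines OEEV47-1 and OEEV47-2, which the design text lists separately, and neither gives plant age or the promoter of the transgene. Whether the 3 replicates of a group were separate plants is not stated, and the p-values rest on a spread between samples that may be technical only.

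The transgene has no probe set on the array, so its level was not checked. The median signal of an array was between 127.5 and 161.1, and 3 arrays a group set the precision that any comparison can have. Of the leaf mesophyll markers 3 of 4 were measured, with summed signals of 68990.7 to 90503.2 over all arrays, while 0 of 3 flower markers reached the level needed for a test. Each Col-0 array was closest to another of its own group, over all probe sets kept except the members. Several OE arrays were not: OE 1h wound C had OE 6h wound B as its nearest array (correlation over probe sets 0.978), OE 6h wound C was nearest to OE control B (0.98), and OE 1h wound A and B to OE control C (0.974 each), while OE control C in turn was nearest to OE 1h wound A and OE 6h wound B to OE 1h wound C. The treatment of single OE arrays is therefore in doubt. The Col-0 comparisons below rest on the 9 Col-0 arrays alone, the genotype comparison on means that do not depend on which treatment an OE array had (their error does), and the comparisons of wound responses between genotypes are given as labelled.

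The rule did not remove all transcription factors. By the deposited function terms, 37 of the 87 members still have transcription factor activity, 18 are ubiquitin ligases, 17 bind zinc and protein, 5 are receptors or kinases and 10 have other functions. RefSeq symbols or synonyms put 8 members in families that the rule meant to leave out: ZAT11, RHL41 (also ZAT12), TDR1 (ERF98), AT5G51190 (ERF105), CEJ1, CZF1, DOF1 and MPK3, whose deposited symbol is that of a nitrate transporter. Without these 8 the called members numbered 22 of 58 at 1 h, 32 at 6 h and 37 between the times, against 26, 35 and 43 of 66 with them. The match was by name only, so genes of these families under other names may remain among the 58. Outside transcription factors, the ligases and the zinc- and protein-binding members are the larger classes.

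Of the 87 members 66 were tested, having reached the 40th percentile of their array on at least 3 of the 18 arrays, and 21 were not. Those not tested were 11 transcription factors (AT1G07520, NAC016, BZIP27, VND1, AT2G33710, ABI5, NAC061, AT4G18450, BZS1, PTL and AT5G22890), 4 ligases (AT2G28820, ATL9, AT5G09800 and AT5G37490), the receptor-like genes AT2G13780 and RLP52, the zinc-binding AT4G15975 and AT5G58610, and SUVH5 and AT4G26120. Their highest signals on any array were 25.4 to 108.4. ATL9, a RING ligase known for its part in chitin signalling, was among them. AT2G33710 is an example of what the filter removes: its signals were 26.5, 47 and 52.5 at 1 h after wounding and 6.8, 7.9 and 2.5 in the controls, all below the 40th percentile. Counts below are out of the 66.

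**Figure D1:**
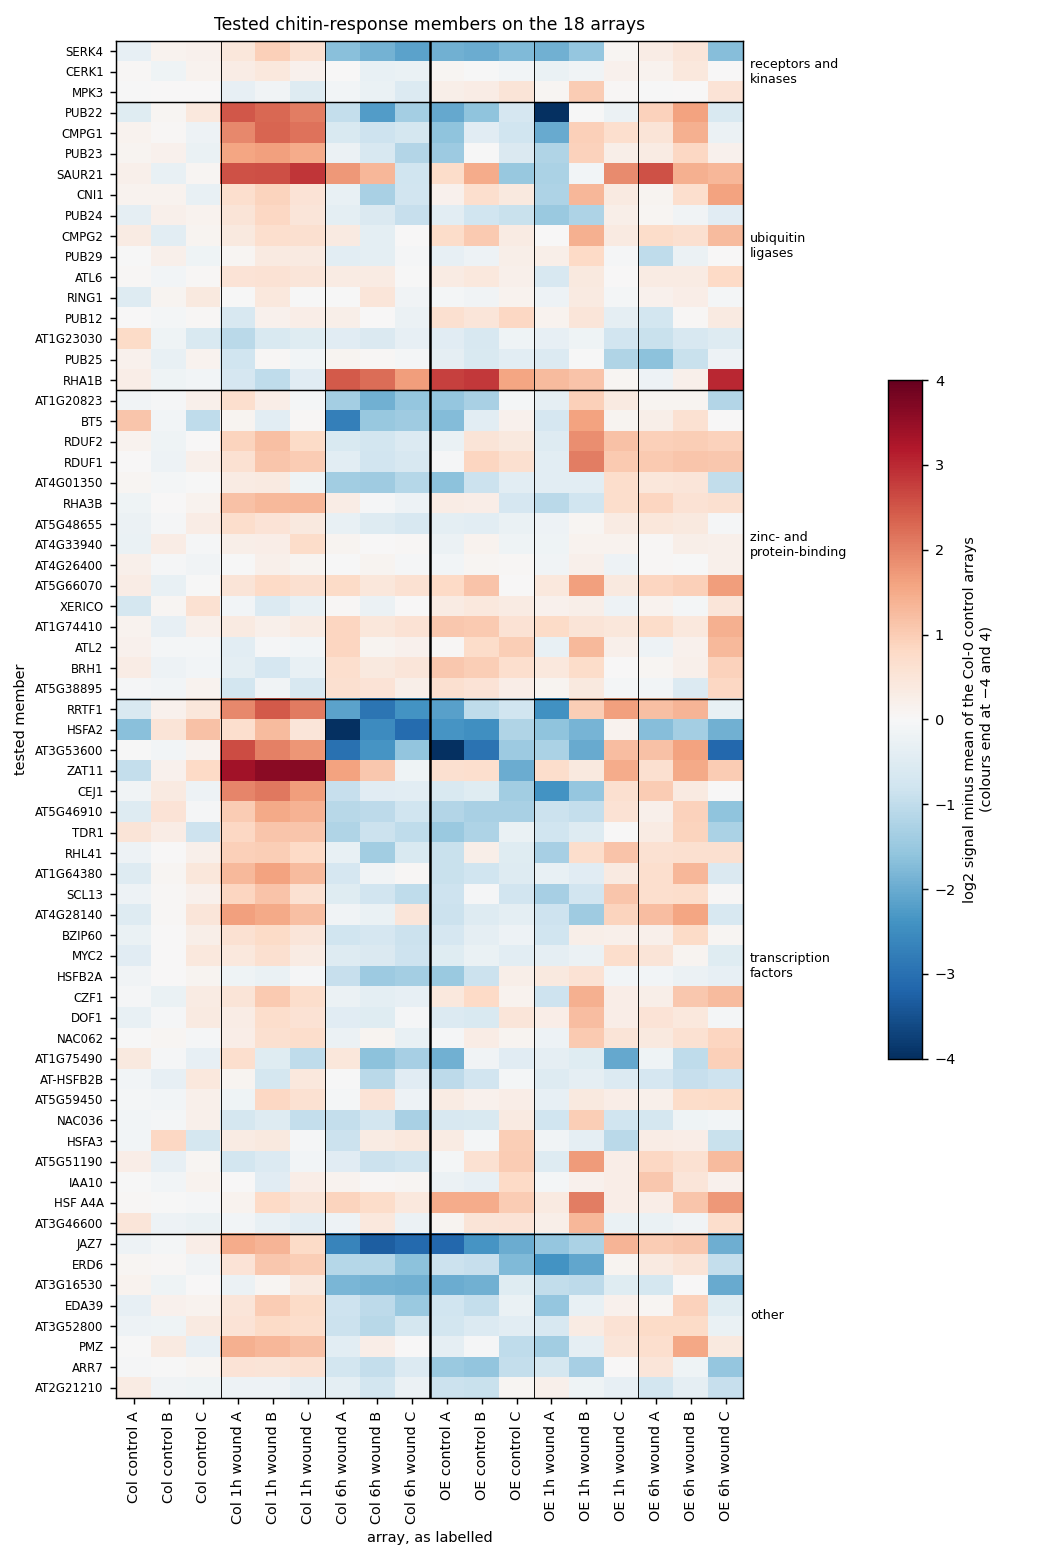
Each row is a tested member, grouped by role, and each column an array as labelled; the colour is the log2 signal minus the mean log2 signal of the 3 Col-0 control arrays. The mean change in Col-0 is above 0 in 48 of the 66 rows at 1 h and in 19 at 6 h, while the OE arrays OE 1h wound C, OE 6h wound A and OE 6h wound B are redder than the other OE arrays in many rows.

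Many of these genes were higher in wild-type leaves 1 h after wounding than in unwounded ones. Against unwounded Col-0 leaves, 25 members were higher and 1 lower 1 h after wounding, 39.4% of the 66 (limma on log2 signal with Benjamini-Hochberg adjustment over 14823 probe sets, adjusted p below 0.05, two-sided). Over all probe sets tested the share called was 5.84%, with 3.64% higher and 2.2% lower. The median log2 change of the members was 0.533, against −0.0877 over all probe sets. The wounded and control arrays did not overlap in 42 members, called or not, where 24.7% of all probe sets showed no overlap. Among the 25, ZAT11 reached the filter level on the 3 Col-0 1 h arrays alone and so had to be higher there. SAUR21 reached it on these, on OE arrays too few to pass it, and on no other Col-0 array. The calls of both support nothing. With each array's median subtracted, the share of calls that were higher went from 62.4% to 83.9% over all probe sets and from 96.2% to 100% among the members. The count rests on the choice of arrays. It was 0 in the model that shares its error with the OE arrays (21 with an unadjusted p below 0.05), 17 with control B left out, 15 with 1h wound B left out and 16 with 1h wound C left out.

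By 6 h after wounding much of the group stood below the unwounded level. Against the controls 5 members were higher and 30 lower, 53% of the 66, where 29% of all probe sets were called, 15.4% higher and 13.6% lower. The median log2 change was −0.471 (−0.318 with dim members set at their bound, as defined below), against 0.0412 over all probe sets. The arrays of these groups did not overlap in 38 members and in 42.6% of all probe sets. The count was 11, 1 higher and 10 lower, in the model with the OE arrays. From 1 h to 6 h after wounding 3 members rose and 40 fell, 65.2% of the 66, where 42.7% of all probe sets were called, 25.4% higher and 17.3% lower. Here the median was −1.09 against 0.134, and the groups did not overlap in 48 members, where 56.1% of all probe sets did not. ZAT11 and SAUR21 are again among those that fell. Both had passed the filter only by way of the 1 h arrays, so these falls support nothing. Median subtraction moved the median of all probe sets from 0.134 to −0.0635 and the share of higher calls from 59.6% to 41.1%, and left 6.52% of the members' calls higher against 6.98%. The contrasts share arrays, so they are not independent of each other.

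No unwounded leaves were labelled for 1 h or 6 h and no hour of sampling is given. Wounding and time of day therefore cannot be told apart at either time. All 4 time-of-day genes set aside as a check (CCA1, LHY, PRR5 and GI) were called at 6 h against the control, and 0 of 4 at 1 h. The summed signal of the guard cell markers KAT1, MYB60 and FAMA ran from 583.1 to 874.3 on control arrays, from 546.2 to 629.3 at 1 h and from 1054.9 to 1291.3 at 6 h. Of the 3, KAT1 was called higher at 6 h (log2 1.26, adjusted p = 0.000454), and MYB60 and FAMA were not (adjusted p = 0.86 and 0.707). Of the 3 root markers, PYK10 was higher at 6 h (log2 3.01, limma adjusted p = 0.00989), SCR was lower (log2 −0.67, adjusted p = 0.0261) and COBL9 was not called; the summed root signal ran from 685.4 to 866.7 on control and from 635.5 to 1561.5 on 6 h arrays. PSAD2 was higher at 6 h (log2 0.66, adjusted p = 0.0147) and the other two mesophyll markers measured were not called, nor was either of the 2 phloem markers. As a measure of RNA integrity, the actin signal at the 3' end over that at the 5' end lay between 16.2 and 23.9 on control arrays, between 23.4 and 45.0 at 1 h, and between 18.6 and 27.5 at 6 h. Their part in the members' changes was not tested. In whole leaves, fewer cells of a type and less RNA per cell cannot be told apart.

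**Figure D2:**
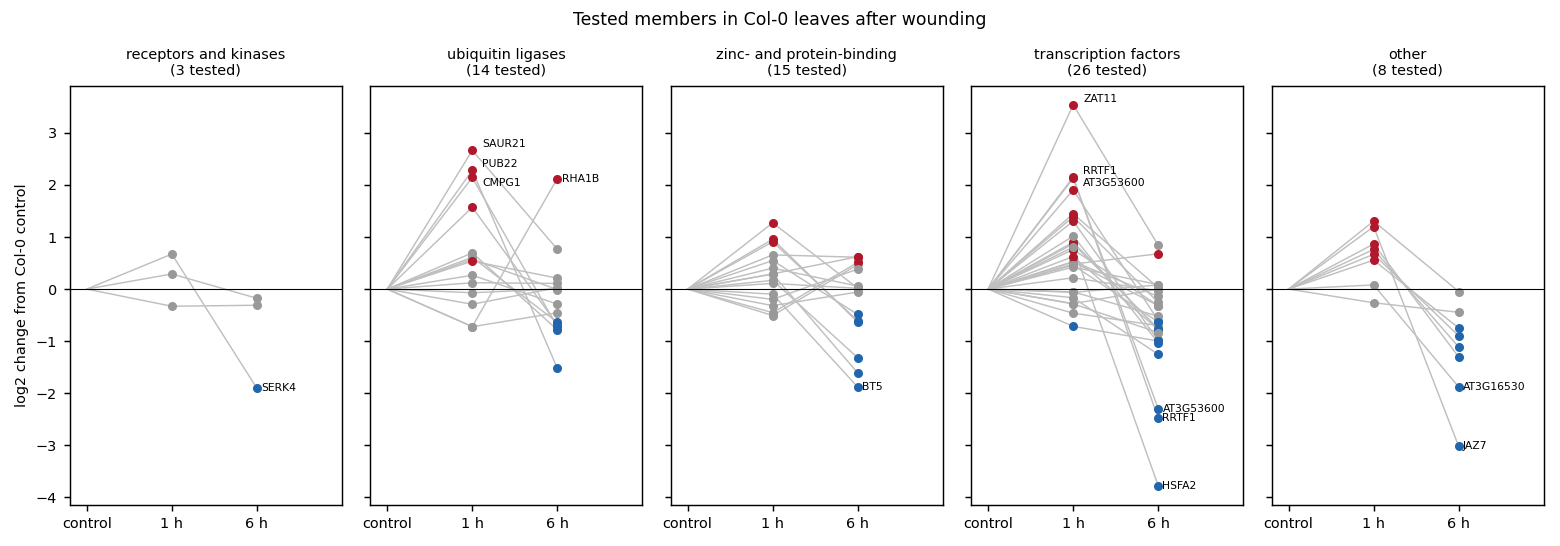
Each line is a tested member in Col-0 leaves, as log2 change from the unwounded control at 1 h and 6 h, in panels by role; red points are called higher than the control, blue lower, and grey points are not called. Called rises at 1 h are seen in 4 of the 5 panels and called falls at 6 h in all 5, and RHA1B among the ligases runs the other way.

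Of all probe sets, 5.84% were called at 1 h, 29% at 6 h and 42.7% between the times. At 1 h 3108 of the 14823 had an unadjusted p below 0.05. The counts of each class below stand beside these shares, and no class was tested against them. The receptors and kinases stand at the head of the pathway. Of the 3 tested, 0 were called at 1 h, 1 was lower at 6 h and 2 were lower at 6 h than at 1 h; at 1 h limma gave 0 calls, 2 of the 3 had an unadjusted p below 0.05, and the lowest adjusted p, 0.0504, was that of SERK4. CERK1, the chitin receptor kinase, had signals of 769, 670.0 and 821 in the 3 control arrays, 915, 1003 and 842 at 1 h and 763, 615 and 625 at 6 h. The 1 h arrays lay above both other groups, and control and 6 h arrays overlapped. The log2 change was 0.29 ± 0.14 (SE) at 1 h (limma adjusted p = 0.269), −0.18 ± 0.14 at 6 h (adjusted p = 0.394) and −0.47 ± 0.14 from 1 h to 6 h (adjusted p = 0.019), so CERK1 passed only in the last comparison.

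SERK4, a co-receptor kinase read by a probe set whose name marks probes shared between genes and which the file titles SERK5, fell at 6 h. Its signals were 1967, 2719.9 and 2792 in the controls, 3358, 4774 and 3773 at 1 h and 769, 660.3 and 562 at 6 h, with no overlap between any of the groups. It fell 3.74-fold from the control to 6 h (log2 −1.90 ± 0.18, limma adjusted p = 1.47e-05), and the rise at 1 h missed the threshold (log2 0.67 ± 0.18, adjusted p = 0.0504). MPK3, a MAP kinase that is activated in response to chitin, had signals of 1458, 1498 and 1514, then 1194, 1345 and 1036 at 1 h and 1378, 1226 and 1027 at 6 h. All wounded arrays were below all controls, but neither difference passed (log2 −0.33 and −0.31, adjusted p = 0.215 and 0.13).

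Of the 14 ubiquitin ligases tested, 5 were higher and 0 lower at 1 h, and 1 higher and 5 lower at 6 h. Between the times, 1 was higher and 7 were lower at 6 h than at 1 h. The shares called over all probe sets were 5.84%, 29% and 42.7%. PUB22, PUB23 and PUB24 are closely related U-box ligases known to dampen immune signalling. PUB22 had signals of 119.7, 179.5 and 224 in the controls, 949, 831 and 698 at 1 h and 86.9, 35.5 and 66 at 6 h. The lowest 1 h array was far above every control, and every 6 h array was below every control. At 6 h arrays B and C lay below the 40th percentile of their array (76.7 and 81.5), and array A just above its own (83.1). The folds to 6 h given here therefore rest on signals near or below that level. PUB22 rose 4.86-fold at 1 h (log2 2.28 ± 0.31, limma adjusted p = 0.00138) and fell 13.9-fold from there to 6 h (log2 −3.80 ± 0.31, adjusted p = 1.93e-06), which left it 2.87-fold below the control (log2 −1.52 ± 0.31, adjusted p = 0.00311).

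PUB23 followed the same course with a smaller range. Its signals were 231, 240.3 and 179, then 643, 669 and 605 at 1 h and 182, 137 and 95.8 at 6 h. The 1 h arrays stood apart, whereas 6 h array A lay above control C. It rose 2.97-fold at 1 h (log2 1.57 ± 0.22, limma adjusted p = 0.00149) and was 1.6-fold below the control at 6 h (log2 −0.68 ± 0.22, adjusted p = 0.033). Against the control PUB24 passed at 6 h only (log2 −0.64, adjusted p = 0.0286), with 0.61 at 1 h (adjusted p = 0.0959). The immunity ligases PUB12 and PUB13, the latter not a member, were not called in any of the Col-0 comparisons.

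CMPG1, another U-box ligase, had the lowest adjusted p of the members at 1 h. Its signals were 424, 402 and 339 in the controls, 1470.2, 1960.1 and 1733 at 1 h and 251, 217 and 236 at 6 h, with no overlap between groups. The rise was 4.42-fold (log2 2.14 ± 0.15, limma adjusted p = 3.56e-05) and the fall from 1 h to 6 h 7.3-fold (log2 −2.87 ± 0.15, adjusted p = 8.34e-08). Its relative CMPG2 was not called in any Col-0 comparison, with log2 0.57 ± 0.26 at 1 h (adjusted p = 0.231).

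AT5G01830, named SAUR21 in RefSeq but annotated as a ubiquitin ligase in the deposited table, was dim before wounding, with signals of 25.3, 17.9 and 22.8 in the controls, 127, 131 and 158 at 1 h and 72.9, 55.2 and 12.6 at 6 h. All its control arrays lay below the 40th percentile of their array. Such a group has only a bound here, and the fold is given as a lower limit computed from that percentile. SAUR21 was at least 1.77-fold higher at 1 h, as a description. It reached that percentile on 5 of the 18 arrays, all those of Col-0 at 1 h and otherwise OE arrays only. Without the Col-0 1 h arrays it would not have been tested, so its calls support nothing and no test is given. It is counted among the ligases higher at 1 h and among those lower at 6 h than at 1 h. The call at 1 h was also lost without Col-0 control B and without 1 h array A, B or C. ATL6, a RING ligase of the carbon to nitrogen balance and of defence, rose at 1 h by log2 0.54 ± 0.13 (adjusted p = 0.0368), and its relative CNI1, also called ATL31, fell at 6 h by 0.78 on the log2 scale (adjusted p = 0.0487).

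RHA1B, a RING-H2 ligase, ran against the other called members of its class. Outside the class BRH1 and AT5G38895, described below, took the same course by smaller amounts. Its signals were 325, 236 and 249 in the controls, 168, 131 and 195 at 1 h and 1469.9, 1267 and 849 at 6 h. The 6 h arrays were above every other Col-0 array and the 1 h arrays below every control. It was 4.36-fold higher at 6 h than in the control (log2 2.12 ± 0.22, limma adjusted p = 2.80e-05) and 7.18-fold higher than at 1 h (log2 2.84 ± 0.22, adjusted p = 1.35e-06), while the drop at 1 h was not called (log2 −0.72, adjusted p = 0.0811). The ligases RING1, PUB12, PUB25, AT1G23030 and CMPG2 were not called in any of the Col-0 comparisons, and PUB29 fell only between 1 h and 6 h (log2 −0.55, adjusted p = 0.0311).

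**Figure D3:**
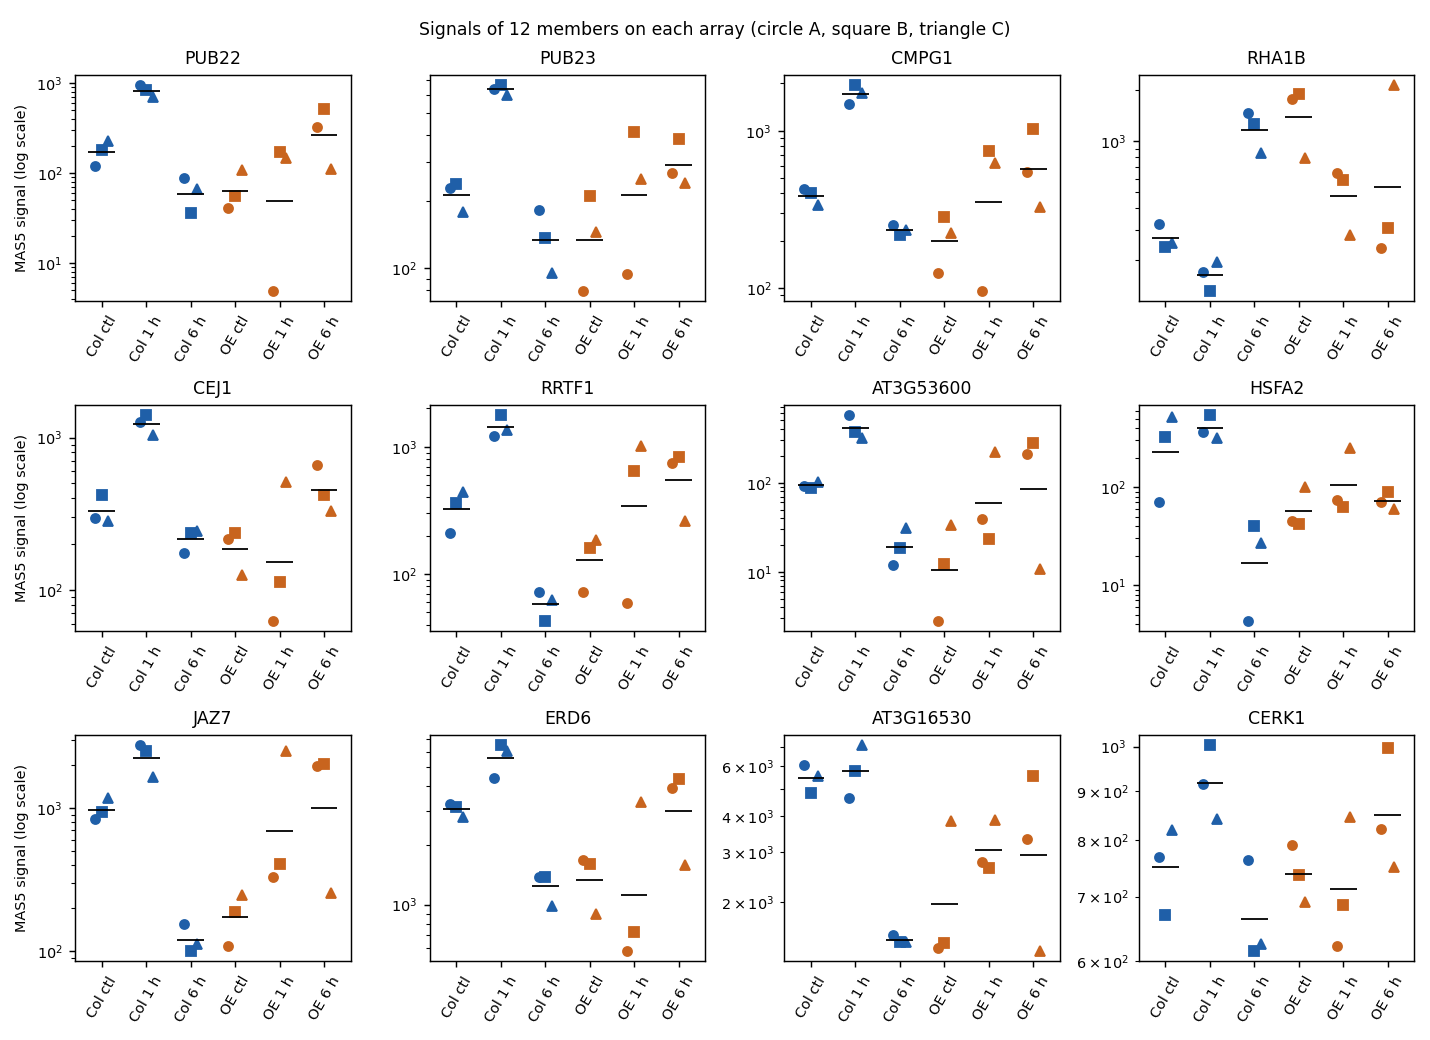
MAS5 signal on a log axis for 12 members, with 1 point per array (blue Col-0, orange OE; circle A, square B, triangle C) and a bar at the geometric mean of each labelled group. In Col-0 the group mean is highest at 6 h for RHA1B and at 1 h for the other 11, and in JAZ7 and ERD6 the OE points of the 1 h and 6 h labels spread over most of the Col-0 range.

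Of the 15 members that bind zinc and protein, 3 were higher and 0 lower at 1 h, and 3 higher and 6 lower at 6 h. Between the times, 2 were higher and 7 lower at 6 h than at 1 h. The shares called over all probe sets were 5.84%, 29% and 42.7%. RHA3B, a RING-H2 protein, had signals of 281, 317 and 348 in the controls, 704, 779 and 796 at 1 h and 386, 306 and 272 at 6 h. It was high at 1 h alone, and the control and 6 h arrays overlapped (log2 1.27 ± 0.16 at 1 h, limma adjusted p = 0.000795; 0.02 at 6 h, adjusted p = 0.951). RDUF1 and RDUF2, RING ligases that act in the drought response to abscisic acid, rose at 1 h by log2 0.91 ± 0.17 and 0.96 ± 0.16 (adjusted p = 0.00718 and 0.00403) and lay below the control at 6 h by 0.61 and 0.63 on the log2 scale (adjusted p = 0.0156 and 0.00946).

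BT5, a protein with BTB and TAZ domains, and AT1G20823 fell at 6 h with no called change at 1 h. BT5 signals were 1197, 507 and 274 in the controls, 589, 409.9 and 563 at 1 h and 83.5, 193 and 206 at 6 h. The controls were widely spread, but every 6 h array was below every other Col-0 array. BT5 was 3.69-fold lower at 6 h (log2 −1.88 ± 0.46, limma adjusted p = 0.00875). AT1G20823 had signals of 464, 498 and 588, then 827, 613 and 487 at 1 h and 199, 135 and 177 at 6 h, and was 3.06-fold lower at 6 h with no overlap (log2 −1.61 ± 0.21, adjusted p = 0.000128). AT4G01350, whose probes are shared between genes, and AT5G48655 also fell at 6 h, by 1.32 and 0.49 on the log2 scale (adjusted p = 9.05e-05 and 0.041).

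The members of this class that rose at 6 h did so by small amounts. BRH1, a RING-H2 gene named for its response to brassinosteroids, had signals of 965, 676 and 725 in the controls, 592, 491 and 633 at 1 h and 1237, 1022 and 1087 at 6 h. All 1 h arrays were below and all 6 h arrays above the controls. The rise over the control was log2 0.51 ± 0.16 (limma adjusted p = 0.0341) and that from 1 h to 6 h 0.97 ± 0.16 (adjusted p = 0.00054). AT1G74410 was 233, 166 and 240.2 in the controls, 268, 242 and 264 at 1 h and 379, 286 and 314 at 6 h. The groups rose in order with no overlap, and only the change at 6 h passed (log2 0.62 ± 0.18, adjusted p = 0.0198).

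AT5G66070 had signals of 204, 135 and 164 in the controls, 235, 289.6 and 259 at 1 h and 283, 226 and 251 at 6 h. Both wounded groups were above the controls and overlapped each other, and 6 h passed (log2 0.61 ± 0.18, adjusted p = 0.0244) while 1 h did not (adjusted p = 0.0557). AT5G38895 had signals of 234, 225 and 265 in the controls, 144, 219 and 154 at 1 h and 378, 350.0 and 282 at 6 h. All 1 h arrays were below and all 6 h arrays above the controls, and only the change between the times passed (log2 0.98 ± 0.19, adjusted p = 0.0013). The calls of BRH1, AT1G74410 and AT5G66070 at 6 h were each lost without Col-0 control B (adjusted p = 0.127, 0.0788 and 0.096) and without 6 h array A (0.125, 0.0874 and 0.0939). ATL2, XERICO, AT4G26400 and AT4G33940 were not called in any of the Col-0 comparisons.

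Of the 26 members tested that have transcription factor activity, 11 were higher and 1 lower at 1 h, and 1 higher and 12 lower at 6 h. Between the times, 0 were higher and 17 lower at 6 h than at 1 h. The shares called over all probe sets were 5.84%, 29% and 42.7%. RRTF1, the redox responsive factor that links reactive oxygen to wound and jasmonate signals, had signals of 210.4, 365 and 440.5 in the controls, 1224, 1776 and 1363 at 1 h and 72.9, 42.8 and 62.1 at 6 h. The groups did not overlap, and the 6 h arrays lay below the 40th percentile. RRTF1 rose 4.44-fold at 1 h (log2 2.15 ± 0.27, limma adjusted p = 0.000894) and was then at least 17.9-fold lower at 6 h than at 1 h (adjusted p = 2.19e-07) and at least 4.02-fold lower than the control (adjusted p = 4.31e-05).

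AT3G53600, annotated as a zinc-binding transcription factor, had signals of 92.2, 86.4 and 102 in the controls, 576, 376 and 317 at 1 h and 11.8, 18.4 and 31.4 at 6 h. Again the groups were apart and the 6 h arrays dim. It rose 4.38-fold at 1 h (log2 2.13 ± 0.35, limma adjusted p = 0.00435) and was at least 5.09-fold lower at 6 h than at 1 h (adjusted p = 1.58e-06). Against the control it was at least 1.16-fold lower at 6 h (adjusted p = 0.00045).

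ZAT11, a C2H2 zinc finger gene, was the reverse case, dim before the wound. Its signals were 10.5, 23.1 and 35.3 in the controls, 212, 249 and 256 at 1 h and 62.9, 43.4 and 18 at 6 h. All control and 6 h arrays lay below the 40th percentile and all 1 h arrays above it. ZAT11 passed the filter through those 3 arrays alone, the only 1 of the 66 to pass through a single group. SAUR21 needed the same arrays but also had OE arrays above the level. The calls of ZAT11 at 1 h and between the times were fixed by the filter and no test is given. Its signal at 1 h was at least 3.05-fold that of the control, as a description.

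CEJ1, a repressor of the DREB type also called DEAR1, had signals of 296, 420.2 and 285 in the controls, 1272, 1407 and 1039 at 1 h and 175, 237 and 243 at 6 h. There was no overlap, though the 6 h arrays came near the lower controls. It rose 3.74-fold at 1 h (log2 1.90 ± 0.19, limma adjusted p = 0.000287) and fell 5.69-fold from 1 h to 6 h (log2 −2.51 ± 0.19, adjusted p = 1.29e-06).

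The other transcription factors that rose at 1 h did so by log2 0.63 to 1.45: AT4G28140, AT1G64380, AT5G46910, RHL41, SCL13, CZF1 and BZIP60, the last a factor of the unfolded protein response. MYC2, the main activator of jasmonate responses, was not called at 1 h (log2 0.46 ± 0.19, adjusted p = 0.201) and fell at 6 h by 0.63 on the log2 scale (adjusted p = 0.0283). BZIP60, RHL41, SCL13, CEJ1, AT5G46910 and HSFB2A were also below the control at 6 h, by 0.61 to 1.25 on the log2 scale, and TDR1 by at least 1.16-fold (adjusted p = 0.033). AT1G64380, AT4G28140, CZF1, DOF1 and NAC062 were not called at 6 h against the control, although each was lower at 6 h than at 1 h.

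The 5 heat shock factors among the members did not move as a group. HSFA2, a factor of the heat and oxidative stress response, had signals of 71.3, 322 and 516 in the controls, 365, 545 and 319 at 1 h and 4.3, 39.9 and 27 at 6 h. Control A was below the 40th percentile of its array, controls B and C were within the range of the 1 h arrays, and all 6 h arrays were below every other Col-0 array. HSFA2 was at least 2.84-fold lower at 6 h than in the control (limma adjusted p = 0.00369; at least 5.07-fold without control A and 1.89-fold without control C) and at least 4.96-fold lower than at 1 h (adjusted p = 0.000615). HSF A4A had signals of 216, 207 and 203 in the controls, 229, 363 and 296 at 1 h and 385, 344 and 282 at 6 h and was the 1 transcription factor that rose at 6 h (log2 0.68 ± 0.19, adjusted p = 0.016). Its wounded arrays were all above the controls at either time, and the 6 h call was lost without 6h wound A or B (adjusted p = 0.0707 and 0.0534). AT-HSFB2B and HSFA3 were not called in any Col-0 comparison.

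NAC036, a NAC factor, was the only member called lower at 1 h. Its signals were 414, 419 and 514 in the controls, 276, 314 and 231 at 1 h and 229.9, 267 and 182 at 6 h, so that both wounded groups were below the controls. It fell by 0.72 on the log2 scale at 1 h (SE 0.18, limma adjusted p = 0.0382) and by 1.00 at 6 h (adjusted p = 0.00146). The call at 1 h was lost under 13 of 20 other settings, with an adjusted p of up to 0.415; among them were leaving out control B or C, 1h wound A, B or C, or 6h wound A (0.0584 to 0.135). AT1G75490, AT3G46600, AT5G51190, AT5G59450 and IAA10 were not called in any of the Col-0 comparisons.

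Among the 8 tested members with other functions 6 were higher at 1 h, 6 lower at 6 h, and 7 lower at 6 h than at 1 h. The shares called over all probe sets were 5.84%, 29% and 42.7%. JAZ7, a repressor of jasmonate responses, had signals of 846, 936 and 1183 in the controls, 2748, 2489.8 and 1659 at 1 h and 156, 100.4 and 112 at 6 h, with wide gaps between all groups. It fell 18.6-fold from 1 h to 6 h (log2 −4.22 ± 0.22, limma adjusted p = 8.34e-08), after a rise of 2.3-fold at 1 h (log2 1.20 ± 0.22, adjusted p = 0.00747), and ended 8.12-fold below the control (log2 −3.02 ± 0.22, adjusted p = 2.05e-06).

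AT3G16530, annotated as a carbohydrate-binding protein, had signals of 6037, 4839.7 and 5536 in the controls, 4642, 5784 and 7107 at 1 h and 1531, 1455 and 1449 at 6 h. The controls and 1 h arrays overlapped and the 6 h arrays were far below them. It fell 3.69-fold to 6 h (log2 −1.88 ± 0.15, limma adjusted p = 5.11e-06) and showed log2 0.08 ± 0.15 at 1 h (adjusted p = 0.813). ERD6, a sugar transporter of the early response to drying, had 3254, 3154 and 2781 in the controls, 4425, 6483 and 6025 at 1 h and 1384, 1386 and 989 at 6 h. It rose at 1 h (log2 0.87 ± 0.17, adjusted p = 0.0127) and was below the control at 6 h (log2 −1.30 ± 0.17, adjusted p = 0.000164), with no overlap.

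EDA39, a calmodulin-binding protein, ARR7, a response regulator that dampens cytokinin signalling, and AT3G52800, annotated as binding zinc and DNA, showed the same signs. They rose at 1 h by log2 0.76, 0.56 and 0.67 (adjusted p = 0.044, 0.0221 and 0.0384) and fell to 6 h against the control by 1.11, 0.75 and 0.90. PMZ, a stress-associated zinc-binding protein, rose at 1 h (log2 1.31 ± 0.23, adjusted p = 0.00557) and at 6 h differed from the control by −0.05 (adjusted p = 0.901). AT2G21210, an auxin-responsive gene, was not called.

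The 33 chitin-annotated genes left out by name, among them the WRKY, ERF and named zinc finger factors, give the comparison nearest to hand. Of their 31 tested, 14 were higher and 1 lower at 1 h, and 0 higher and 19 lower at 6 h. Between the times, 3 were higher and 25 lower at 6 h than at 1 h. Of all probe sets 5.84%, 29% and 42.7% were called in these comparisons. The median log2 changes of the left-out genes were 0.73, −0.923 and −1.728, against 0.533, −0.471 and −1.09 for the members. A difference between these groups was not tested, and the groups are split by name only, so genes of the same families may stand in both. Within the members, the transcription factors had medians of 0.577, −0.619 and −1.09 and the ligases of 0.555, −0.148 and −0.567.

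The pathway that brings the chitin signal to these genes was read from a list of 12 genes of perception and early signalling, of which 11 were tested. At 1 h BIK1, a kinase of immune receptors (log2 1.81 ± 0.17, limma adjusted p = 0.000185), and LYK4, a LysM receptor kinase (1.52 ± 0.21, adjusted p = 0.00168), were higher and 0 were lower. At 6 h BIK1 was higher than the control and 5 were lower, among them LYK5, a high-affinity chitin receptor (−1.93 ± 0.25, adjusted p = 0.000129), LYM2, MKK4, MKK5 and the oxidase RBOHD. From 1 h to 6 h 10 of the 11 fell, where 42.7% of all probe sets were called, 17.3% of them all lower. At 1 h and at 6 h against the control, 5.84% and 29% of all probe sets were called. The list was not tested against these shares. Chitinases are the enzymes that cut chitin. Of 11 tested, 1 was higher at 1 h (AT2G43620, 0.77 ± 0.18, limma adjusted p = 0.0252). At 6 h 1 was higher and 2 were lower, and between the times 1 was higher and 3 were lower. Of all probe sets 5.84%, 29% and 42.7% were called in these comparisons. The chitinase counts are therefore not read as a result about chitinases.

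The members that differed between the genotypes depended on the arrays and their weights. With the average of the 9 OE arrays set against that of the 9 Col-0 arrays, 4 members were higher in OE and 0 lower, 6.06% of the 66, where 4.84% of all probe sets were called, 3.01% higher and 1.83% lower. The share of members called was near that of all probe sets. The median difference of the members was −0.0337 on the log2 scale, against 0.05 over all probe sets. With medians subtracted, 35% of the calls over all probe sets were higher in OE instead of 62.2%, and 2 members were called, both higher. The 4 were AT5G51190, BRH1, MPK3 and AT1G74410. They came from the transcription factors, the kinases and the zinc- and protein-binding class. Of the 14 members with the ligase term 0 passed, and 4 had an unadjusted p below 0.05, where 3366 of 14823 probe sets had. That term does not hold all RING genes: BRH1 and the RING ligases RDUF1 and RDUF2 stand in the zinc- and protein-binding class.

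AT5G51190, an ERF-type gene also called ERF105, had Col-0 signals of 114, 75.2 and 101 in the controls, 57.3, 64.8 and 89 at 1 h and 69.1, 52.6 and 55.2 at 6 h. In OE it was 89.7, 144 and 192 in the arrays labelled control, 66.2, 313 and 114 in those labelled 1 h and 169.6, 145 and 229.8 in those labelled 6 h. OE 1h wound B was highest of all, and OE control A and OE 1h wound A lay within the Col-0 range. The mean difference was log2 1.02 ± 0.25 (limma adjusted p = 0.0294).

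MPK3, whose Col-0 signals are given above, was 1739, 1848 and 2134 in OE control, 1562, 2992 and 1540.0 in OE 1h wound and 1477, 1492 and 2175 in OE 6h wound arrays. Again OE 1h wound B was highest, and OE 6h wound A and B fell within the Col-0 range. The difference was log2 0.51 ± 0.13 (limma adjusted p = 0.0338).

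BRH1 was 1636, 1545 and 1246 in OE control, 1042, 1292 and 790.4 in OE 1h wound and 822, 891 and 1478 in OE 6h wound arrays, and 5 of these 9 lay above every Col-0 array (log2 0.55 ± 0.13, adjusted p = 0.0272). AT1G74410 was 446, 438 and 314 in OE control, 357, 304 and 286 in OE 1h wound and 352, 280.3 and 564 in OE 6h wound arrays, with 3 of the 9 above every Col-0 array (log2 0.48 ± 0.13, adjusted p = 0.0499). These calls are not firm: across the other settings AT5G51190 lost its call 8 times, BRH1 9, MPK3 12 and AT1G74410 21 times. The count was 0 with no term for treatment, and 0 when control B, 6h wound B or 6h wound C of Col-0 or control B of OE was left out. It was 1 when 1h wound A or B of Col-0 or control A of OE was left out, 2 when control A or 1h wound C of Col-0 or 1h wound B or 6h wound C of OE was left out, 2 with the replicate block, and 11 without OE 1h wound C. It was 18, 7 higher and 11 lower, without the OE arrays lettered C, and 19, 8 higher and 11 lower, with array weights, so the balance of higher and lower also turned. It was 2 without the 8 members named for other families. Guard cell markers, 2 of 3 of them higher in OE, had summed signals of 903.2 to 1367.6 over the OE arrays. Their part in these differences was not tested.

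**Figure D4:**
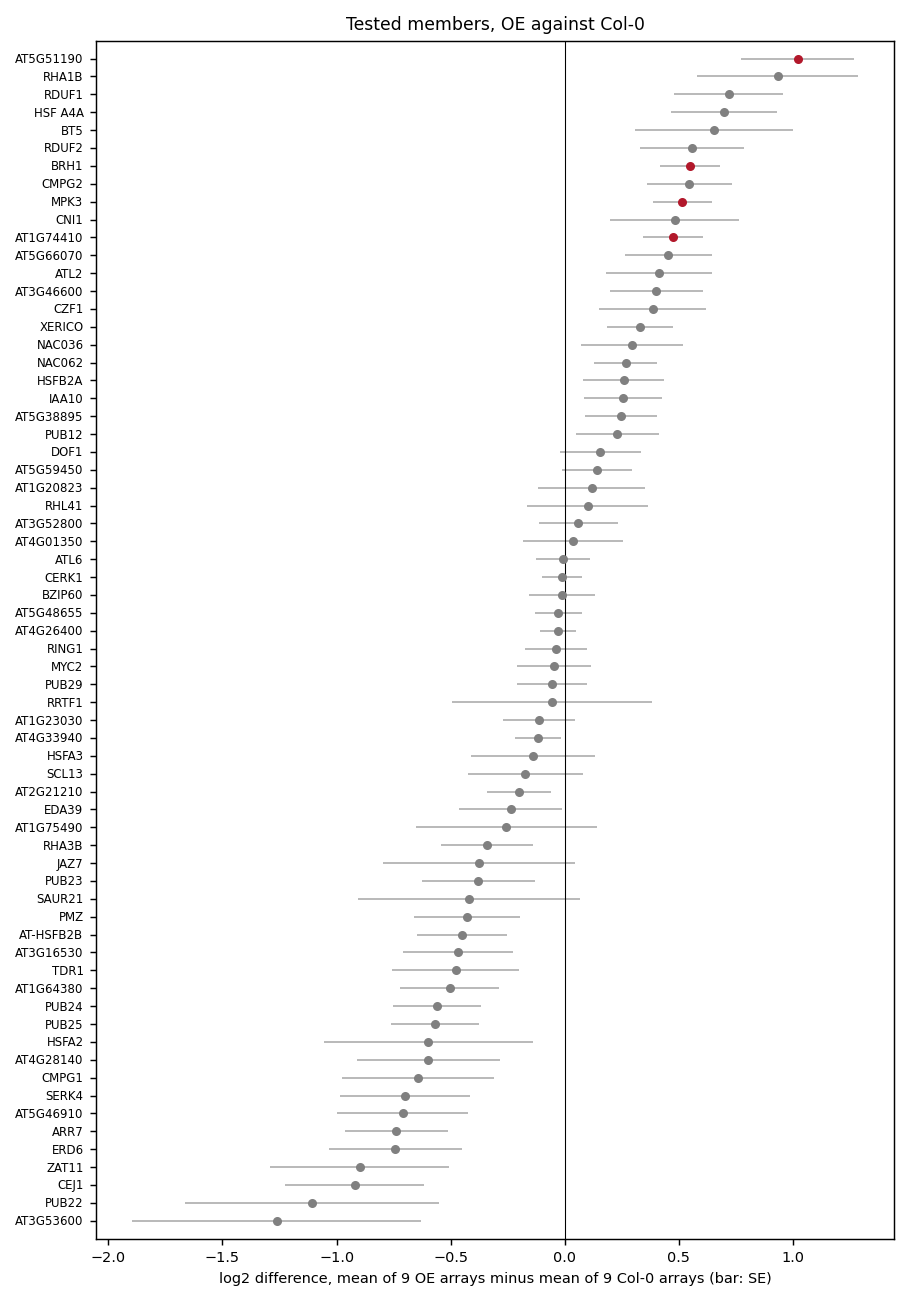
Log2 difference of each tested member, mean of the 9 OE arrays minus mean of the 9 Col-0 arrays, with its standard error as a bar; the 4 called members are red. The points run from about −1.26 for AT3G53600 to 1.02 for AT5G51190.

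CERK1 was not called between the genotypes (log2 −0.01 ± 0.09, limma adjusted p = 0.955), and 0 of the 11 perception genes passed, while 0.0605 was the lowest adjusted p among them. Of the 11 chitinases AT2G43620 was lower in OE. Its mean signals were 571 ± 117, 966 ± 166 and 1220 ± 75.2 in Col-0 controls, at 1 h and at 6 h, and 290 ± 48.9, 197 ± 36.3 and 421 ± 156 in the OE arrays labelled likewise (SD, n = 3 each). The difference was log2 −1.62 ± 0.14 (adjusted p = 2.88e-05), with the same sign in each of the labelled treatments.

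Whether the wound response itself differs between the genotypes can be read only as labelled. For the change at 1 h 0 members passed (limma), where 0% of all probe sets were called; 7 members and 1497 probe sets had an unadjusted p below 0.05. For the change at 6 h 22 members differed, 20 with a higher and 2 with a lower change in OE than in Col-0, 33.3% of the 66, where 23.3% of all probe sets were called, 10.2% higher and 13.2% lower. The median difference of the members was 1.08 on the log2 scale (0.904 with dim members at their bound), against −0.0939 over all probe sets.

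The OE arrays of a label were far apart in many of these members. JAZ7 had signals of 110.0, 189.8 and 247 in OE control, 333, 407 and 2498 in OE 1h wound and 1976, 2043 and 255 in OE 6h wound arrays. The arrays OE 1h wound C, OE 6h wound A and OE 6h wound B were near the Col-0 1 h arrays, and the other 6 were near or between the Col-0 6 h arrays and the controls. In 20 of the 66 members these same 3 arrays were the highest of the 9, where 9.84% of all probe sets had them so; the 3 arrays were picked after the values were seen, and no test was made. ERD6 is a further case, with 1689, 1604 and 892 under the control label, 579, 726 and 3313 under the 1 h label and 3919, 4354 and 1591 under the 6 h label. RHA1B, high at 6 h in Col-0, was 1779.5, 1904 and 795 under the control label, 648, 585 and 279.8 under the 1 h label and 233, 305 and 2143 under the 6 h label, so that OE 6h wound C and OE control A and B were its highest OE arrays. Without the OE arrays lettered C, 37 members differed at 6 h and 14 at 1 h. Leaving out OE 6h wound B left 11, and without Col-0 6h wound C, OE control A, OE control B or OE 6h wound A there were 14, 13, 13 and 13.

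**Figure D5:**
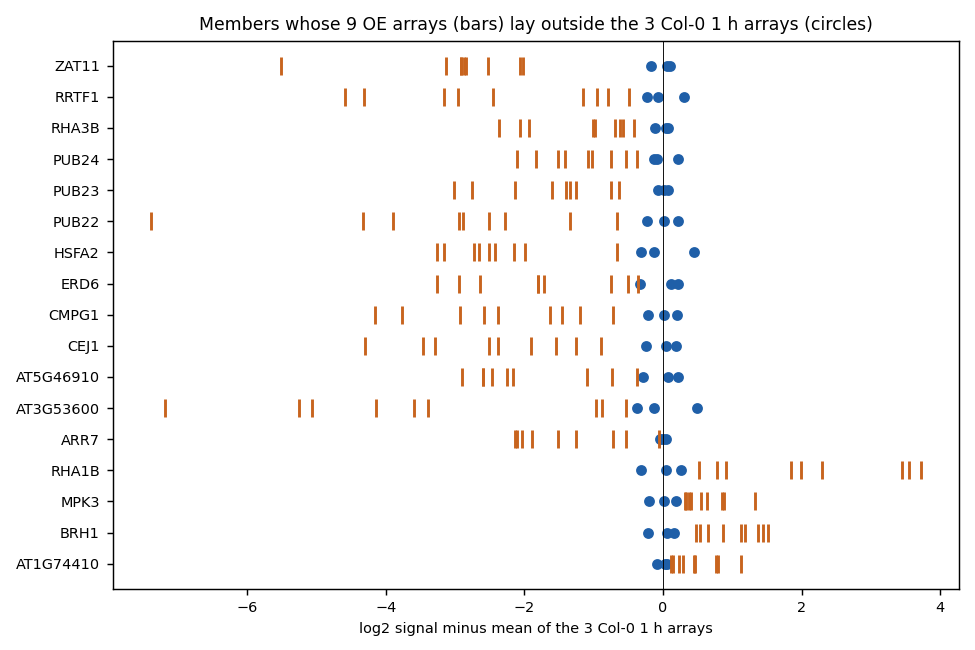
For members whose 9 OE arrays all lay on the same side of the 3 Col-0 arrays taken 1 h after wounding, each bar is an OE array and each circle a Col-0 1 h array, as log2 signal minus the mean of the Col-0 1 h arrays; the order of genes is alphabetical within each side. All 9 OE arrays were below in 13 of the 66 members (5.31% of all probe sets) and above in 4 (11.3%), whatever treatment an OE array had. Genes high at 1 h in Col-0, more frequent among the members, are more apt to have the OE arrays below.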

How the data were processed

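The authors deposited MAS5 signal, a linear intensity per probe set, with an annotation table; the tool is named per the submitters' processing notes and its version is not stated. A further 90 columns hold values per array under names that no label matches and were not used. From there log2 of the signal was taken with no further scaling. Probe sets were kept when they reached the 40th percentile of their array on at least 3 of 18 arrays, which left 14823 of 22810, without the 64 control probe sets. limma 3.58.1 in R 4.3.3 (moderated variance with an intensity trend) gave two-sided p-values, adjusted by Benjamini-Hochberg over the 14823. Col-0 contrasts used the 9 Col-0 arrays (6 residual degrees of freedom). OE against Col-0 and both interactions used all 18 arrays (12). The scripts were tested on simulated data. Python 3.11.15 with matplotlib 3.10.9 made the figures.

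The members, the gene lists and the choice of arrays for each fit were made with earlier results of these data known. Signals on every array are given for up to 8 members per direction and comparison, by size of change among those called with no overlap between groups (no such condition for OE against Col-0); CERK1, SERK4, RHA3B, ERD6 and AT2G33710 were shown so after their values were seen. Where all arrays of a group lay below the 40th percentile, the fold is a bound computed from that percentile. Replicate letters were not taken as pairing the samples, since same-letter arrays did not all deviate together: the correlation of deviations from group means ran from −0.0762 to 0.0989 over 9 Col-0 pairs, from −0.237 to 0.238 over 27 pairs of a Col-0 and an OE array (5 above 0.1), and from −0.605 to 0.0552 over 9 OE pairs. With 3 arrays a group these correlations cannot exclude pairing, and those of OE pairs also rest on the OE labels that are in doubt. Alternatives covered the arrays in the fit, normalization, the log scale, the filter, the variance model, array weights, the replicate block and leaving out each array. Gene names are the file's or RefSeq's (85 of 87 loci matched).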

Additional observations from a re-analysis of the deposited data

Results flagged for a closer look

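The wound response at 6 h differed between the genotypes, as labelled, in 22 members by the limma interaction term. Among the members described array by array, the difference in log2 change at 6 h, OE minus Col-0, was 5.57 for JAZ7, 5.33 for AT3G53600, 4.56 for RRTF1, 4.12 for HSFA2, 2.84 for BT5, 2.45 for AT3G16530, 2.26 for AT1G20823 and 1.80 for PUB23. It was −3.50 for RHA1B and −1.03 for BRH1. AT3G53600, RRTF1 and HSFA2 have arrays below the 40th percentile in at least 1 group, so the fitted size of their difference is no bound. These values rest on the OE treatment labels, which several OE arrays did not match in their nearest array. No test of single outlying arrays was made within groups of 3.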

How the results depend on the processing

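No single named member that was called changed sign under an alternative, but the balance of OE against Col-0 calls turned from 4 higher and 0 lower to more lower than higher under 2 of them. In Col-0 at 1 h the count of 26 members fell to 0 (21 unadjusted) in the model of all 18 arrays and ran from 15 to 30 when 1 array was left out. At 6 h the 35 fell to 11 in the model of all 18 arrays and ran from 24 to 34 when 1 array was left out. The 43 between 1 h and 6 h ran from 37 to 46, and from 40 to 43 with 1 array left out. For OE against Col-0 the 4 became 18 (7 higher, 11 lower) without the OE arrays lettered C, 19 (8 and 11) with array weights, 0 with no treatment term (13 unadjusted), 2 with medians subtracted and 2 without the 8 members that RefSeq names put in other families, and ran from 0 to 11 with 1 array left out. The interaction at 1 h rose from 0 to 14 without the OE arrays lettered C and to 13 with array weights, and ran from 0 to 3 with 1 array left out. The interaction at 6 h rose from 22 to 37 under both of these settings and ran from 11 to 32 with 1 array left out. Why the counts moved was not tested. With the replicate block the counts were 21, 33 and 43 in the Col-0 contrasts, 2 for OE against Col-0, 0 and 17 for the interactions. Across the alternatives for single named members 639 values kept their side of the threshold and 96 lost the call, 15 of them in the model of all 18 arrays. The motif count in promoters was not run, because no promoter sequence was used here. Dim members limit the rest: 21 of 87 were not tested, and a fold from a dim group is a bound.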

Other observations

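A comparison that does not depend on the OE treatment labels sets all 9 OE arrays against the 3 Col-0 arrays at 1 h. It was chosen after the data were seen and has no test. In 13 of the 66 members, 19.7%, every OE array lay below every Col-0 1 h array, where 5.31% of all probe sets did so. They were the ligases CMPG1, PUB22, PUB23 and PUB24, the RING-H2 gene RHA3B, the transcription factors AT3G53600, AT5G46910, CEJ1, HSFA2, RRTF1 and ZAT11, and ARR7 and ERD6. All but HSFA2 and PUB24 of these were called higher at 1 h in Col-0, a call that rests on the same arrays. Of the 66 members 25 were called higher there, against 3.64% of all probe sets, and such genes are more apt to lie above the OE arrays. The share among probe sets called higher at 1 h was not computed, so the excess over 5.31% is not read as a difference of genotype. ZAT11 had passed the filter through the Col-0 1 h arrays alone, so its place among the 13 was fixed by the filter. In CEJ1 the highest of the 9 OE arrays was 663.7 and the lowest Col-0 1 h array 1039.2, and in CMPG1 these were 1033.0 and 1470.2. ARR7 and ERD6 came closest to overlap, with 3537.3 against 3577.0 and 4354.5 against 4424.7. In 4 members, 6.06%, every OE array lay above every Col-0 1 h array (AT1G74410, BRH1, MPK3 and RHA1B), where 11.3% of all probe sets did so.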
